A study of Mus musculus with 12 samples.

Results

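A set of 7 long noncoding RNAs (lncRNAs) found wholly or partly in the nucleus, Malat1, Neat1, Meg3, Rian, Mirg, Kcnq1ot1 and Tug1, were followed from whole-cell RNA into RNA purified on ribosomes of the endoplasmic reticulum (ER). They were chosen by name, as a gauge of RNA in the purified fraction that ribosomes do not carry, and all 7 were found among the 55416 gene IDs in the count tables and passed the filter on low counts. E14Tg2a.4 mouse embryonic stem cells were used, whose large-subunit ribosomal protein Rpl31 carries a FLAG-TEV-AviTag (Rpl31-FTA). In all 4 groups the proximity biotinylation system ALIBi was targeted to the ER. Cells given scramble siRNA yielded 2 groups, RNA eluted with TEV protease from affinity-purified ER ribosomes (ER-bound below) and whole-cell RNA, and the same 2 fractions were taken from cells given siRNA against Lsg1, a GTPase that acts late in the maturation of the 60S ribosomal subunit. Each group held 3 biological replicates, and an ER-bound library and the whole-cell library of the same number and siRNA came from 1 lysate, so that 6 lysates gave the 12 libraries. Whether the nuclei were opened or removed at lysis is not given in the sources used here.

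The libraries held 38092178 to 56522114 counts in genes, which is above the labelled target depth in read pairs. Whether a count stands for a read pair or for a single mate is not given in the sources used here, and this holds for every read count below. The 10 embryonic stem cell markers had mean levels of 226 to 1886 CPM (reads relative to the library's total, scaled by TMM) in whole-cell RNA of scramble cells. The 6 feeder or fibroblast markers ran from 0.0297 CPM (Postn) to 21.0 CPM (Thy1) there. They summed to 27.1 to 29.96 CPM in the whole-cell and 47.9 to 55.3 CPM in the ER-bound libraries of scramble cells, and their part in the results was not tested. Lsg1 itself fell by 1.77 on the log2 scale in ER-bound RNA (SE 0.11, edgeR adjusted p = 6.3e-08). In whole-cell RNA it had 143 ± 6.38 CPM with scramble and 98.0 ± 15.1 CPM with Lsg1 siRNA (SD, n = 3 each), which edgeR did not call (adjusted p = 0.25).

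Most mRNAs leave the nucleus once they are spliced and polyadenylated, and ribosomes meet them in the cytoplasm. Malat1 lies in nuclear speckles, which hold splicing factors, and Neat1 is the scaffold of paraspeckles. Meg3, Rian and Mirg are made from the maternal copy of the imprinted Dlk1-Dio3 domain and carry microRNAs and small nucleolar RNAs, and Kcnq1ot1 silences its neighbours on the paternal chromosome. Tug1 is found both in the nucleus and in the cytoplasm of many cells.

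Because the libraries were made by poly-A selection, the 3′ ends of these RNAs bear on what was counted. The mature ends of Malat1 and of the long Neat1 isoform are not made by the usual polyadenylation: RNase P cuts them after an A-rich tract that the genome encodes, and this tract folds with U-rich motifs upstream into a triple helix. The sequences come from GENCODE M21 transcripts on GRCm38, in DNA letters. The first pair shows these ends, with the A-rich tract and the GCAAAA that follows it in capitals (for Malat1 also the first U-rich motif), at chr19:5795982-5796067 and chr19:5824708-5824802, both on the minus strand.
Malat1-201: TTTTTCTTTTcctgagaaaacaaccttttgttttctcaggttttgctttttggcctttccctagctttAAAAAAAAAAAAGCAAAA
Neat1-201: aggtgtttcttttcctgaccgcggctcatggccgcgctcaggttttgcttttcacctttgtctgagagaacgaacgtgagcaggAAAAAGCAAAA

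The Malat1 tract held 12 A and the Neat1 tract 5 A, and their last 11 bases were identical. The annotated Malat1-201 transcript ran on for 292 bases beyond the tract, and Neat1-201 (20771 bases) stopped at it. The other ends hold a match to a polyadenylation signal, AATAAA or ATTAAA, within their last 60 bases. Capitals mark it in these ends: the short Neat1 isoform, the long form of Malat1, and the longest annotated transcript of each of the others. In order they lie at chr19:5842307-5842366 (minus), chr19:5795690-5795749 (minus), chr12:109571667-109571726, chr12:109654950-109655009 and chr12:109749399-109749458 (all 3 plus), chr7:143203458-143203517 (minus) and chr11:3639785-3639844 (minus).
Neat1-202: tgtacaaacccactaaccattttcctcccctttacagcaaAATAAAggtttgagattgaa
Malat1-201 end: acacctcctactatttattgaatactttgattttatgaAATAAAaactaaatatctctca
Meg3-209: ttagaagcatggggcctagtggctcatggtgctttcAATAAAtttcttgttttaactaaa
Rian-201: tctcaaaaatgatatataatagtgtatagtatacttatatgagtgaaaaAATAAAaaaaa
Mirg-204: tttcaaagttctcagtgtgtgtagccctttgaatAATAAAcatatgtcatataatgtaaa
Kcnq1ot1-201: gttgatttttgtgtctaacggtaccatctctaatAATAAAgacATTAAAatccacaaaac
Tug1-201: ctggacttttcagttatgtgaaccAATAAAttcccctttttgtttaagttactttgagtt

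Of the longest transcripts of the 7 genes, 6 held at least 1 of the 2 signals on the sense strand in their last 60 bases, all but Neat1-201, and the short Neat1-202 held one as well. So did 56.1% of the longest transcripts of the 1312 tested lncRNA genes and 74.7% of those of the 14674 tested protein-coding genes. All of these are sequence matches, and whether they are used was not tested. In Rian-201 the match lies almost at the transcript end, within an A-rich stretch. The 11-base run shared by Malat1 and Neat1 occurred in 6 of the lncRNA transcripts (0.457%) and in 165 of the protein-coding ones (1.12%). The counts per gene do not separate cut ends from polyadenylated ones, nor the short from the long Neat1 isoform.

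A pair of motifs was searched on the sense strand of each longest transcript: AGCCC, described as a nuclear retention signal in another lncRNA, and GGTAAG, a sequence like the 5′ splice site. For AGCCC, Meg3 held 1.86 and Mirg 2.09 matches per kb, above the median of 1.29 per kb over the 1198 tested lncRNAs of at least 500 bases. Rian held 0.371, Tug1 0.149, Malat1 0.716, Neat1 0.818 and Kcnq1ot1 0.956 matches per kb, all below that median. For GGTAAG the median over the same lncRNAs was 0.0 matches per kb, so that any transcript with 1 match lay above it. Malat1, Meg3 and Mirg held 1 match each, Rian 2, Neat1 5 and Kcnq1ot1 27, while Tug1 held none. Lying above this median thus does not show that these 6 are rich in the motif. Per kb they ran from 0.0687 in Meg3 to 0.290 in Kcnq1ot1. Between 73.5% (Meg3) and 79.6% (Kcnq1ot1) of those lncRNAs had fewer GGTAAG matches per kb than these 6. The longest open reading frame from an ATG ran from 64 codons in Malat1 to 250 codons in Kcnq1ot1, whose transcript is 93092 bases long.

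Levels of different genes were compared as CPM per kb of merged exons. In whole-cell RNA of scramble cells Malat1 led with 50.0 CPM per kb, followed by Tug1 (11.1), Rian (9.48), Meg3 (3.66), Neat1 (1.74), Mirg (0.904) and Kcnq1ot1 (0.0343). The replicates of no 2 neighbours in this order overlapped. The order of Tug1 and Rian rests on the length used, because per kb of the longest transcript Rian stood at 21.4 and Tug1 at 16.1 CPM. On that scale the whole-cell replicates of Neat1 (1.69 to 1.82 CPM per kb) and Mirg (1.60 to 1.86 CPM per kb) overlapped. In ER-bound RNA of scramble cells the order per kb of merged exons was Malat1 (15.1), Tug1 (9.58), Meg3 (5.13), Rian (2.46), Neat1 (0.838), Mirg (0.675) and Kcnq1ot1 (0.0340), and here the replicates of Neat1 and Mirg overlapped. Per kb of the longest transcript this last order turned, with Mirg at 1.06 to 1.51 CPM and Neat1 at 0.738 to 0.941 CPM in ER-bound RNA. Meg3 thus stood above Rian in this fraction and below it in whole-cell RNA, by the means on both length scales. Per kb of the longest transcript, however, their ER-bound replicates overlapped. So did those of Malat1 (10.7 to 20.5 CPM per kb) and Tug1 (13.2 to 14.4 CPM per kb) in scramble cells. Neat1 was divided by 20771 bases on both scales, the length of its long isoform, while the short Neat1-202 has 3004 bases. The counts do not separate these isoforms, so Neat1's place in each order rests on the length of the long one.

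**Figure D1:**
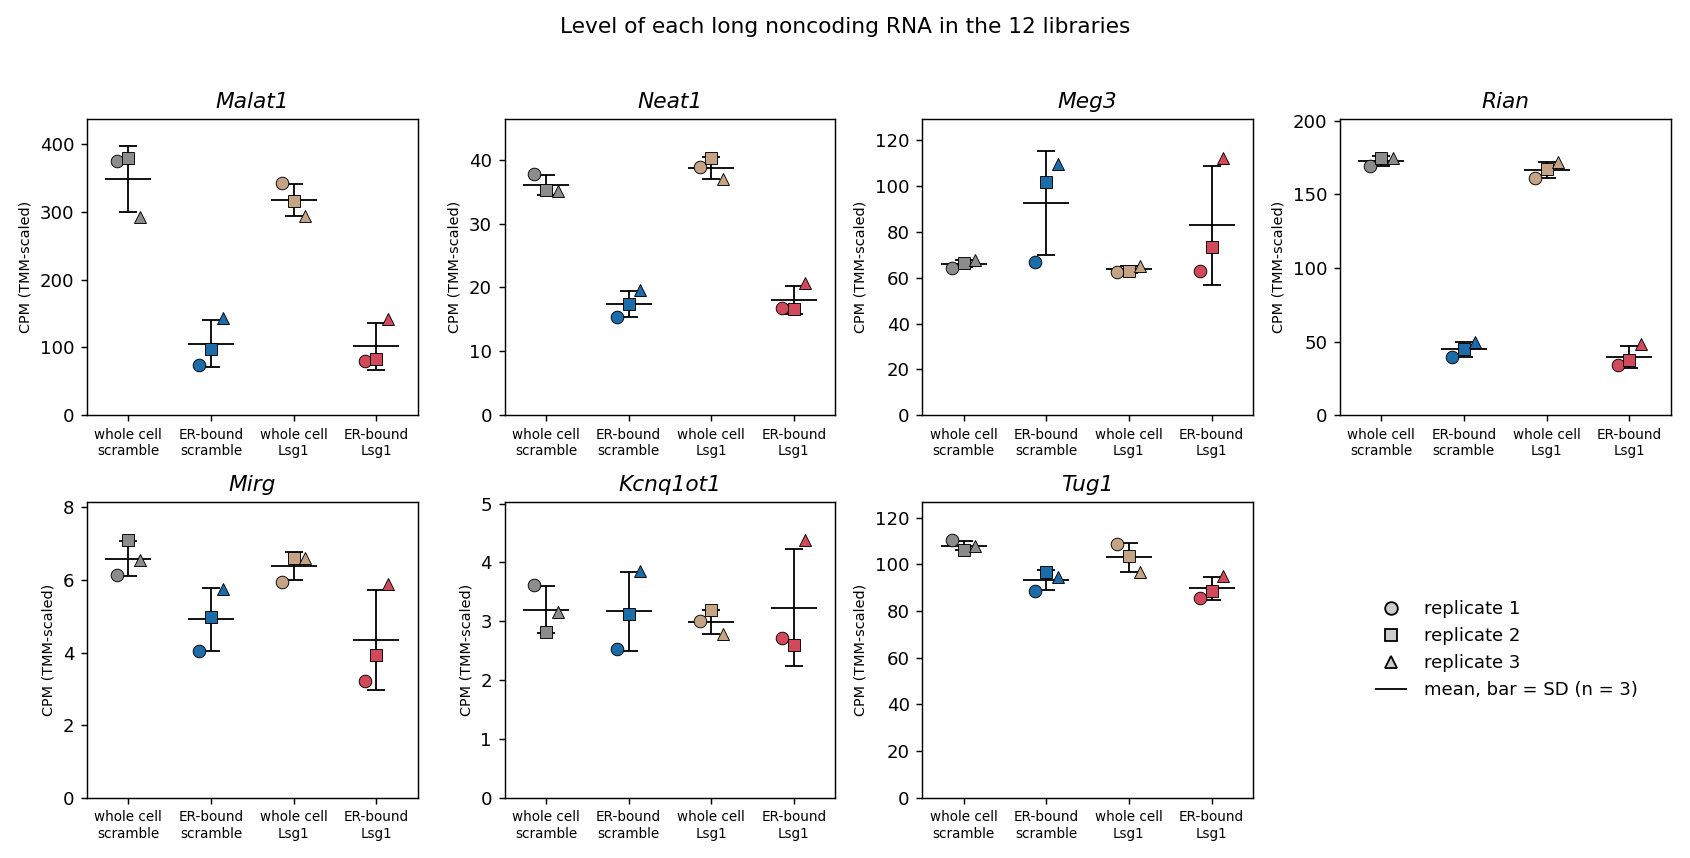
TMM-scaled CPM (vertical axis, from 0) of each lncRNA in the 4 groups; points are libraries, shaped by replicate number, and bars are the mean and SD of 3. Malat1, Neat1 and Rian sit far lower in both ER-bound groups than in whole-cell RNA, Meg3 spreads widely in ER-bound RNA, and replicate 3 is the highest ER-bound point for nearly every RNA.

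The first question was how much of each RNA came through the purification. In ER-bound against whole-cell RNA of scramble cells, 5 of the 7 RNAs were lower and 1 was higher by edgeR at an adjusted p under 0.05, where 58.9% of all 17702 tested genes were called, 29.1% lower and 29.8% higher. In Lsg1 siRNA cells 5 were lower and none was higher, where 60.3% of all genes were called, 29.8% lower and 30.6% higher. Calls were thus common for any gene, and the sizes say more: Malat1, Neat1 and Rian were called at least 2-fold lower with both siRNAs, as were 2.96% of tested genes in scramble cells and 3.12% in Lsg1 cells. Between fractions, 5 of the 7 had groups that did not overlap with either siRNA, as did 63.9% of tested genes in scramble and 64.4% in Lsg1 cells. Levels are shares of a library's reads, so they do not give the yield of an RNA. In bulk libraries, fewer cells holding an RNA and less of it per cell cannot be told apart.

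Malat1, the speckle RNA, had 375, 380 and 293 CPM in the whole-cell libraries of scramble replicates 1 to 3 and 74.7, 97.9 and 143 CPM in their ER-bound libraries. In Lsg1 siRNA cells the whole-cell values were 342, 316 and 294 CPM and the ER-bound values 79.9, 83.6 and 141 CPM. Every ER-bound library lay below every whole-cell library, and replicate 3 was the highest ER-bound and the lowest whole-cell library with either siRNA. Malat1 fell by 1.73 on the log2 scale in scramble cells (SE 0.20, edgeR adjusted p = 6.2e-07) and by 1.64 in Lsg1 cells (SE 0.20, adjusted p = 1.2e-06). The ER-bound CPM was 20.0%, 25.8% and 48.8% of the whole-cell CPM of the same lysate in scramble cells and 23.4%, 26.5% and 48.1% in Lsg1 cells. Its exons share 453 bases with Gm37376 on the other strand, which had 103 reads in the 12 libraries together.

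Neat1, the paraspeckle RNA, had 37.8, 35.3 and 35.1 CPM in whole-cell RNA of scramble cells and 15.3, 17.3 and 19.5 CPM in ER-bound RNA. In Lsg1 cells it had 38.8, 40.3 and 36.9 CPM in whole-cell RNA and 16.8, 16.6 and 20.6 CPM in ER-bound RNA. The fractions did not overlap, and the ER-bound CPM was 40.6% to 55.7% of the whole-cell CPM in scramble and 41.3% to 55.9% in Lsg1 cells. It fell by 1.05 (SE 0.08, edgeR adjusted p = 1.7e-09) and by 1.10 (SE 0.08, adjusted p = 7.5e-10) on the log2 scale. With an offset for trends in GC content and transcript length the Neat1 folds shrank to -0.26 (adjusted p = 0.00072) and -0.37 (adjusted p = 1.9e-05). Only 15 of the 17652 tested genes with a length had a longer transcript than Neat1, so the offset rests on few genes there.

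Of 13 speckle and paraspeckle protein genes, 5 were lower and 3 higher in ER-bound RNA of scramble cells, with a median log2 fold of 0.00 against 0.03 for all tested genes. Hnrnpk, an RNA-binding protein of paraspeckles, stood at -0.15 and Sfpq, a paraspeckle core protein, at -0.07 on the log2 scale, and Srsf2, a speckle splicing factor, at 0.10. In Lsg1 cells 6 were lower and 2 higher, with a median of -0.06 against 0.02 for all genes. The median hides Son, a speckle protein gene named after its values were seen. Son rose by 0.83 in scramble cells (edgeR adjusted p = 4.9e-05) and by 0.65 in Lsg1 cells (adjusted p = 0.0006). Its ER-bound CPM was 143%, 170% and 221% of the whole-cell CPM in scramble replicates 1 to 3.

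The 3 RNAs of the Dlk1-Dio3 domain parted. Rian, the host of a cluster of small nucleolar RNAs, had 169, 175 and 175 CPM in whole-cell RNA of scramble cells and 39.5, 45.1 and 49.9 CPM in ER-bound RNA. In Lsg1 cells it had 161, 167 and 172 CPM in whole-cell RNA and 33.9, 37.2 and 48.2 CPM in ER-bound RNA. The fractions were far apart and the whole-cell replicates close together. Rian fell by 1.95 on the log2 scale in scramble cells (SE 0.09, edgeR adjusted p = 4e-12) and by 2.07 in Lsg1 cells (SE 0.09, adjusted p = 1.8e-12), and its ER-bound CPM was 21.0% to 28.5% of the whole-cell CPM over the 6 lysates. With the offset for GC content and length these folds were -1.05 and -1.18, both still called (adjusted p = 6.5e-10 and 1.2e-10). The GC content used for Rian was 35.8%.

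Meg3, transcribed from the same strand of the domain and host of microRNAs, went the other way. It had 64.4, 66.4 and 67.7 CPM in whole-cell RNA of scramble cells and 67.0, 102 and 110 CPM in ER-bound RNA. In Lsg1 cells the whole-cell values were 62.5, 63.1 and 65.4 CPM and the ER-bound values 62.8, 73.7 and 112 CPM. ER-bound replicate 1 lay within or next to the whole-cell range with either siRNA, and replicate 3 was far above it. Meg3 was higher by 0.49 on the log2 scale in scramble cells (SE 0.17, edgeR adjusted p = 0.018), but the groups overlapped. The call was lost without ER-bound replicate 2 (0.40, adjusted p = 0.076), without ER-bound replicate 3 (0.33, adjusted p = 0.097), without whole-cell replicate 1 (0.45, adjusted p = 0.060) and in DESeq2 (0.47, adjusted p = 0.10). In Lsg1 cells the log2 fold was 0.38 (SE 0.17, adjusted p = 0.059), which was called with the replicate number as a block (0.35, adjusted p = 0.017) and was 0.07 without ER-bound replicate 3. It was also called without ER-bound Lsg1 replicate 1 (0.54, adjusted p = 0.007), ER-bound Lsg1 replicate 2 (0.45, adjusted p = 0.048) or ER-bound scramble replicate 1 (0.37, adjusted p = 0.0085). With the GC and length offset the Meg3 folds were 1.10 and 0.96, both called. Of its exon bases 1228 lie opposite Gm26906.

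The ratio of Meg3 to Rian reads within a library was 0.378 to 0.387 in the 6 whole-cell libraries and 1.69 to 2.33 in the 6 ER-bound libraries, with no overlap. Meg3 was at 100.5% to 172% of its whole-cell CPM over the 6 lysates. Both RNAs lie in 1 domain and are not independent examples.

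Mirg, host of a further microRNA cluster, had 6.13, 7.09 and 6.56 CPM in whole-cell RNA of scramble cells and 4.03, 4.97 and 5.77 CPM in ER-bound RNA. In Lsg1 cells it had 5.94, 6.61 and 6.604 CPM in whole-cell RNA and 3.21, 3.94 and 5.89 CPM in ER-bound RNA. The ranges did not overlap, but the highest ER-bound library came close to the lowest whole-cell one with both siRNAs. Mirg fell by 0.42 on the log2 scale in scramble cells (SE 0.15, edgeR adjusted p = 0.025) and by 0.56 in Lsg1 cells (SE 0.16, adjusted p = 0.0049). In scramble cells the call was lost without ER-bound replicate 1 (-0.30, adjusted p = 0.080), without whole-cell replicate 2 (-0.38, adjusted p = 0.084) and with library totals as the scaling (-0.35, adjusted p = 0.056). These values rest on 158 to 365 reads a library.

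Of 13 tested coding genes in the imprinted domains of these RNAs, 6 were higher and 3 lower in ER-bound RNA of scramble cells, with a median log2 fold of 0.22, and 6 and 4 in Lsg1 cells, with a median of 0.31. Cd81, which encodes a membrane protein, rose by 1.36 on the log2 scale in scramble cells. Nap1l4, which encodes a histone chaperone, fell by 0.25, and Wars, the tryptophanyl-tRNA synthetase, by 0.12.

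Kcnq1ot1, the silencing RNA of the Kcnq1 domain, had the lowest level of the 7, with 108 to 187 reads a library. Its whole-cell values were 3.61, 2.81 and 3.16 CPM and its ER-bound values 2.52, 3.13 and 3.86 CPM in scramble cells. In Lsg1 cells it had 3.01, 3.19 and 2.78 CPM in whole-cell RNA and 2.72, 2.59 and 4.37 CPM in ER-bound RNA. The groups overlapped, and neither fold was called: -0.01 (SE 0.18, edgeR adjusted p = 0.97) and 0.10 (SE 0.18, adjusted p = 0.66) on the log2 scale. With the GC and length offset both were called higher, at 1.42 and 1.43, but only 3 tested genes had a longer transcript. Its exons share 121 bases with Kcnq1 on the other strand, and the strand setting of the counting is not given in the sources used here.

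Tug1, which is also found in the cytoplasm, had 110, 106 and 108 CPM in whole-cell RNA of scramble cells and 88.6, 96.7 and 94.5 CPM in ER-bound RNA. In Lsg1 cells it had 109, 104 and 96.6 CPM in whole-cell RNA and 85.5, 88.5 and 95.2 CPM in ER-bound RNA. The ranges did not overlap, although the highest ER-bound and the lowest whole-cell library of Lsg1 cells were close. The ER-bound CPM was 80.3% to 91.1% of the whole-cell CPM in scramble and 78.5% to 98.5% in Lsg1 cells. Tug1 fell by 0.21 (SE 0.05, edgeR adjusted p = 0.00075) and by 0.20 (SE 0.05, adjusted p = 0.0013) on the log2 scale. With the GC and length offset it was called higher instead, by 0.42 in both (adjusted p = 4.3e-09 and 3.5e-09), so that its direction depends on that choice. With library totals as the scaling it was at -0.14 (adjusted p = 0.027) and at -0.11, no longer called (adjusted p = 0.063). Of its exon bases 4.96% lie opposite exons of Morc2a, a coding gene.

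**Figure D2:**
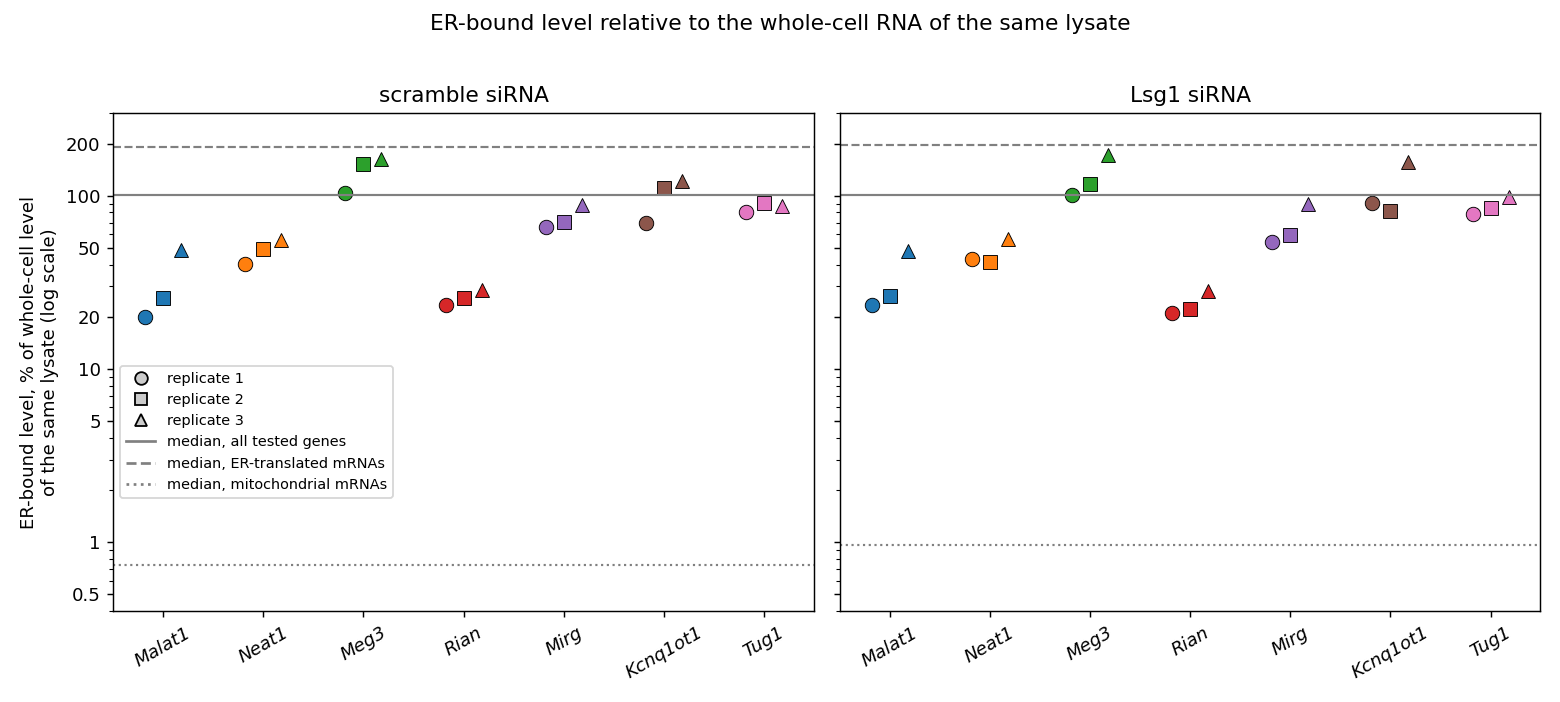
ER-bound level as a percentage of the whole-cell level of the same lysate (vertical axis, log scale) for each lncRNA, with 1 point per lysate shaped by replicate number; lines are medians of gene lists. Malat1 sits between 20.0% and 48.8%, Rian between 21.0% and 28.5%, Neat1 between 40.6% and 55.9% and Meg3 between 100.5% and 172%, while the median mitochondrial mRNA lies between 0.620% and 1.04% in the single lysates.

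The 7 RNAs were set beside reference lists. All 13 mitochondrially encoded mRNAs, which ribosomes of the cytoplasm do not translate, were lower with both siRNAs, with median log2 folds of -6.01 and -5.96; mt-Co1, a cytochrome oxidase subunit, fell by 5.95 in scramble cells. Their median ER-bound level was 0.620% to 1.04% of the whole-cell level over the 6 lysates. Some of them lie near the floor. The scramble median fold is that of mt-Co2, with 4.15 CPM in whole-cell and 0.0206 CPM in ER-bound RNA. In ER-bound RNA mt-Nd3, mt-Nd4l and mt-Atp8 had 0.0 CPM, so the size of their folds rests on the prior count. The abundant mt-Co1 had 8232 CPM in whole-cell and 133 CPM in ER-bound RNA of scramble cells. All 17 mRNAs translated at the ER were higher, with medians of 0.94 and 0.99; Hsp90b1, an ER chaperone, rose by 0.56, and Calr, another, by 0.99 in scramble cells. The lncRNAs' median log2 fold was -0.42 in scramble and -0.56 in Lsg1 cells, and the lowest of the 7, Rian at -2.07, lay far above the mitochondrial medians. Summed over the 7, the level was 285 to 428 CPM in ER-bound and 674 to 772 CPM in whole-cell libraries, while the 13 mitochondrial mRNAs summed to 238 to 283 CPM and 18963 to 20655 CPM.

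**Figure D3:**
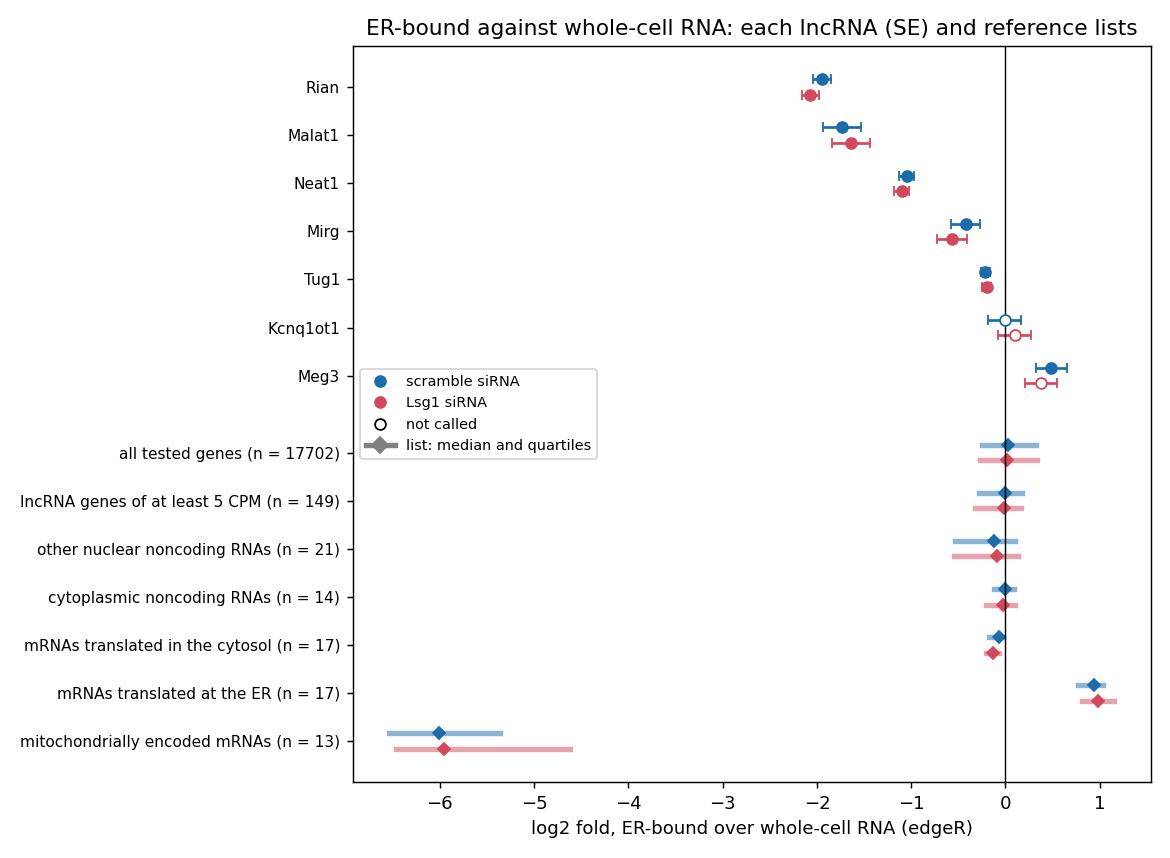
Log2 fold of ER-bound over whole-cell RNA (horizontal axis, edgeR) for each lncRNA with its SE, and the median and quartiles of reference lists, for scramble and Lsg1 siRNA; open circles were not called. Rian, Malat1 and Neat1 lie left of every list's quartiles but those of the mitochondrial mRNAs, and Meg3 lies to the right of 0.

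Other lncRNAs, listed by name as linked to the nucleus or chromatin, spread widely. Where they lie in these cells was not measured, and the list may hold cytoplasmic RNAs such as Cyrano. Of 21 tested, 8 were lower and 3 higher in scramble cells, with a median log2 fold of -0.13, and 9 and 5 in Lsg1 cells, with a median of -0.09. Lncenc1, a lncRNA of naive stem cells, fell by 0.27 and Cyrano (1700020I14Rik), which directs the decay of a microRNA, by 1.32 in scramble cells; Platr10 stood at -0.02. Of 14 tested cytoplasmic lncRNAs, 2 were lower and 3 higher in scramble cells, with a median of -0.01, and 6 and 3 in Lsg1 cells, with a median of -0.02. Among them Snhg5 rose by 0.26, and Gas5, whose spliced RNA is known to sit on ribosomes, stood at 0.07 and Snhg1 at -0.05. The 2 called lower in scramble cells, named after their values were seen, were Norad (2900097C17Rik) and Snhg3. Norad fell by 0.70 in scramble and 0.56 in Lsg1 cells, and Snhg3 by 0.53 and 0.66. In scramble cells both fell further than Mirg and Tug1, so a fall of that size was not confined to the nuclear lists. Cytosolic mRNAs had medians of -0.07 and -0.13, with 9 and 14 of 17 lower.

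Among the 149 lncRNA genes with a mean of at least 5 CPM, 49 were lower and 37 higher in scramble cells. By fold from the lowest, Rian ranked 1 and Malat1 3 in scramble cells, and 2 and 4 in Lsg1 cells. Near them stood Snhg14, also an imprinted small nucleolar RNA host, at -1.83 and -1.95, and in Lsg1 cells Gm15564 at -2.26 with an SE of 0.82; both are named after their values were seen. Counted from the lowest fold in scramble and in Lsg1 cells, Neat1 ranked 10 and 11, Mirg 28 and 23, Tug1 44 and 48, and Meg3 140 and 134. By whole-cell CPM, which also counts length, Malat1 ranked 2 and Rian 4 from the highest. All lncRNA genes together took 0.594% to 0.623% of gene reads in ER-bound and 0.646% to 0.671% in whole-cell libraries.

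Transcript length moved with the fold over all genes. Tested genes with a longest transcript under 2000 bases had a median log2 fold of 0.16 in scramble cells (5415 genes), and those of at least 6500 bases had -0.42 (1684 genes). The 22 lncRNA genes of at least 6500 bases had a median of -0.51 in scramble and -0.48 in Lsg1 cells. All the RNAs described here but Mirg (3822 bases) are in that class, with longest transcripts of 6719 bases in Tug1, 6983 in Malat1, 8089 in Rian and more in the others. Malat1, Neat1 and Rian lay below the class median, and Tug1, Kcnq1ot1 and Meg3 above it, though that median is partly made of these RNAs. The part of length in these folds was not tested beyond the offset.

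**Figure D4:**
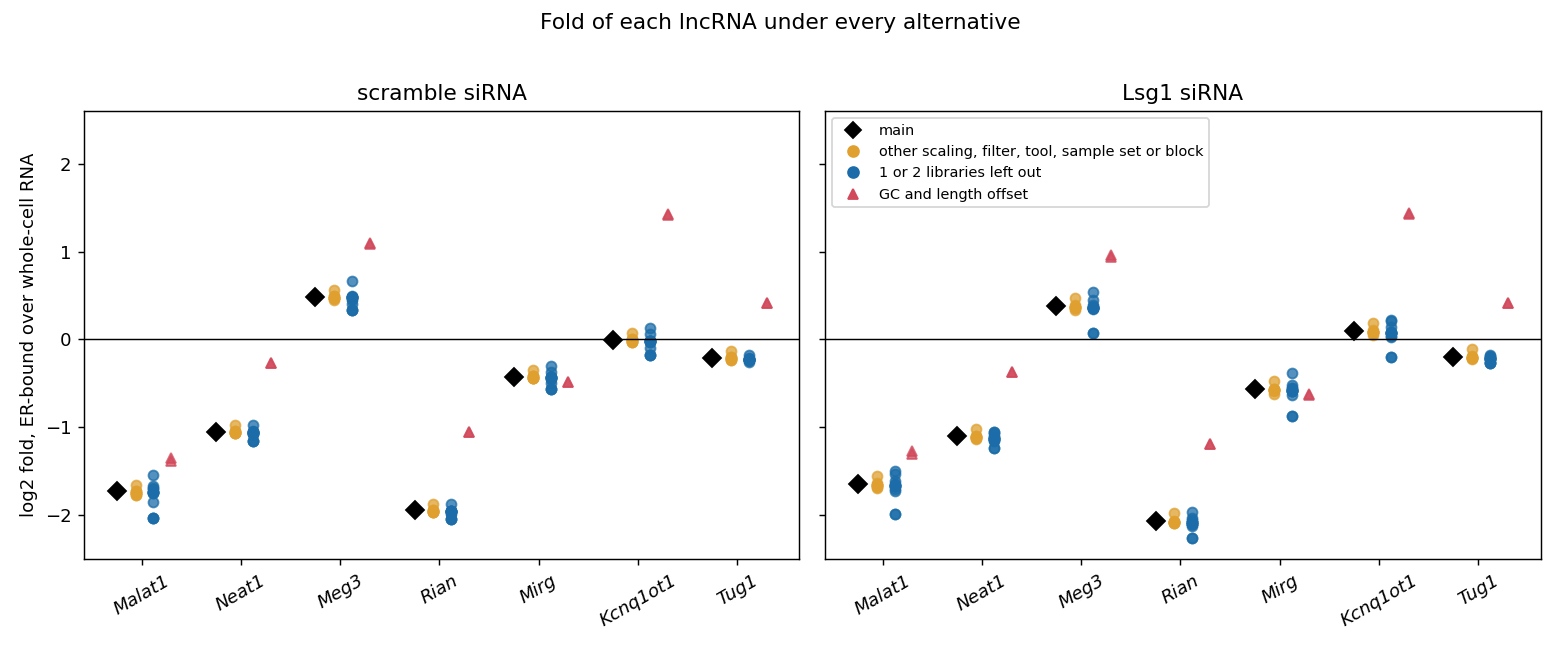
Log2 fold of ER-bound over whole-cell RNA (vertical axis) for each lncRNA under the main analysis (black diamond) and 25 alternatives, coloured by kind. Malat1, Neat1, Rian and Mirg stay below 0 in all of them, and the GC and length offset (red triangles) puts Tug1 at 0.42 and Kcnq1ot1 at 1.42 and 1.43.

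The ER-bound replicates of these RNAs spread widely. The coefficient of variation over 3 ER-bound libraries was 33.0% in scramble and 33.9% in Lsg1 cells for Malat1, 24.5% and 31.4% for Meg3, and 17.6% and 31.9% for Mirg. Over tested genes of at least 5 CPM the median was 3.59% and 3.31%, and the 95th percentile 11.7% and 9.31%. Tug1 was lower than the 95th percentile, at 4.51% and 5.51%, and Rian was so in scramble cells alone (11.5%, against 18.9% in Lsg1 cells). In whole-cell RNA the 95th percentile was 8.25% and 9.29%, and of the 7 only Malat1 (13.9%) and Kcnq1ot1 (12.5%) in scramble cells lay above it.

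Replicate 3 was the highest ER-bound library for 6 of the 7 RNAs in scramble cells, all but Tug1, and for all 7 in Lsg1 cells. Replicate 3 was highest in both ER-bound groups for 6 of the 7, for 16.5% of all tested genes and for 24.2% of the 149 lncRNAs. The 7 RNAs summed to 292, 367 and 426 CPM in ER-bound replicates 1 to 3 of scramble cells and to 285, 306 and 428 CPM in Lsg1 cells. The mitochondrial mRNAs, which were depleted far more, summed to 238, 274 and 283 CPM and to 248, 267 and 278 CPM in the same libraries. Without ER-bound replicate 3 of both siRNAs, an alternative chosen after seeing the data, the same 5 lncRNAs were called lower with either siRNA. The share of all tested genes called lower in that fit is not given here. In the main analysis it was 29.1% in scramble and 29.8% in Lsg1 cells. With these libraries left out, the sizes were as follows. Malat1 then fell by 2.03 and 1.98, Rian by 2.04 and 2.26, and Mirg by 0.56 and 0.87 on the log2 scale, and Meg3 was at 0.33 (adjusted p = 0.012) and 0.07 (adjusted p = 0.61). Reads in no feature were 2.69%, 3.05% and 5.11% in ER-bound replicates 1 to 3 of scramble cells and 2.65%, 2.78% and 3.10% in Lsg1 cells, so that replicate 3 was the highest in both. ER-bound replicate 3 of scramble cells is also a library known from earlier results to stand apart. The part of these differences in the lncRNA levels was not tested.

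The study also asked what Lsg1 siRNA changes. In whole-cell RNA none of the 7 RNAs was called and all groups overlapped, where 10.4% of tested genes had groups that did not overlap and edgeR called 0.0% of tested genes; at an unadjusted p under 0.05 edgeR had 731 genes and none of the 7, and DESeq2 called 3 genes and limma-voom none. The log2 differences of Lsg1 minus scramble cells ran from -0.14 in Malat1 (SE 0.19) to 0.10 in Neat1 (SE 0.07). These SEs share 1 spread per gene with the ER-bound groups, whose replicates lay further apart, so small whole-cell changes could be missed. In ER-bound RNA none of the 7 was called either, where edgeR called 4.01% of tested genes (2.63% higher and 1.38% lower). All 7 groups overlapped, where 21.5% of tested genes did not, and none had an unadjusted p under 0.05 in edgeR, DESeq2 or limma-voom. The differences there ran from -0.19 in Mirg (SE 0.16) to 0.05 in Neat1 (SE 0.08), and Rian was at -0.17 (SE 0.09, edgeR adjusted p = 0.37). Without ER-bound Lsg1 replicate 3, Rian was called lower, at -0.35 (adjusted p = 0.014), as it was without ER-bound replicate 3 of both siRNAs, at -0.27 (adjusted p = 0.029). With the replicate number as a block, 749 genes were called higher and 429 lower in ER-bound RNA, against 465 and 245 without it, and none of the 7 was among them.

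Whether the folds between fractions differed between the siRNAs was tested as an interaction. None of the 7 was called, where edgeR called 0.0226% of tested genes (0.0113% higher and 0.0113% lower), and none had an unadjusted p under 0.05 by edgeR, DESeq2 or limma-voom. The interactions ran from -0.14 in Mirg (SE 0.22) to 0.11 in Kcnq1ot1 (SE 0.25) on the log2 scale. Tug1 had the narrowest estimate, 0.01 (SE 0.07), and Malat1 the widest, 0.09 (SE 0.28). Meg3's call in scramble and not in Lsg1 cells is thus not shown to be a difference between them (interaction -0.11, SE 0.24, adjusted p = 0.98).

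Over the 12 libraries, which hold both fractions, all the RNAs of at least 5 CPM but Meg3 correlated with one another. Pearson's r of log2 CPM was 0.98 for Malat1 and Neat1, 0.97 for Malat1 and Rian, and 0.99 for Neat1 and Rian. Tug1 had an r of 0.92 with Malat1, 0.88 with Neat1 and 0.89 with Rian, and Mirg one of 0.88, 0.82 and 0.83 with the same RNAs and 0.83 with Tug1. Over the same libraries Meg3 was at -0.39 with Malat1, -0.50 with Neat1, -0.52 with Rian, -0.26 with Tug1 and 0.02 with Mirg. These values describe 12 libraries that share the division into 2 fractions, and so follow the step between fractions, in which Meg3 went the other way. They do not show that Meg3 differed among replicates. In ER-bound RNA, Meg3 and Malat1 were both lowest in replicate 1 and highest in replicate 3 with either siRNA. Correlations within a fraction were not computed. Among tested and named genes of at least 5 CPM, those most like Malat1 were Zfp263 (0.991), Gm49759 (0.989) and Pnn (0.988), and those most like Neat1 were Pnn, Upf2 and Ctr9 (0.996, 0.995 and 0.994). Snrnp70, Mettl16 and Pan2 were most like Rian (0.998, 0.998 and 0.997), although Snrnp70 had 273 CPM in ER-bound and 389 CPM in whole-cell RNA on average, a smaller step than Rian's. Tsix, the antisense partner of Xist, was most like Meg3 (0.965), ahead of Aire (0.955) and Thrap3 (0.949). Mir124a-1hg (0.975), Akap8 (0.963) and Dancr (0.958) were most like Mirg, and Akap17b (0.978), Firre (0.970) and Zfp275 (0.963) most like Tug1.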

How the data were processed

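Per the labels, libraries were made from poly-A-selected RNA with a directional kit and read as pairs. The authors deposited unnormalized read counts for each gene, 1 table for each library. STAR 2.7.9a, HTSeq 0.11.2, DESeq2 and GRCm39 are named in the submitters' processing notes. Which strand setting the counting used is not given in the sources used here. The tables list 55416 gene IDs, and their 5 summary lines stayed out (2.65% to 5.26% of reads were in no feature). Matching IDs without version to GENCODE M21 (GRCm38) named 94.0% of them. Lengths, GC content and sequences are from GRCm38 and the counts from GRCm39.

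TMM-scaled counts of the 17702 genes that passed filterByExpr were tested with edgeR 4.0.16 in R 4.3.3 (quasi-likelihood F-test, 1 mean for each group, 12 libraries, 8 residual degrees of freedom, prior count 2, Benjamini-Hochberg adjustment over all tested genes, threshold 0.05). An adjusted p with no tool named is from this test. SDs describe the spread between labelled biological replicates of 1 group. The SEs and p-values of edgeR rest on 1 spread per gene, shared by the 4 groups. Where spreads differ, an SE can be too wide within whole-cell RNA and too narrow within ER-bound RNA. Meg3's coefficient of variation was 2.50% in whole-cell and 24.5% in ER-bound RNA of scramble cells. Its SE for Lsg1 against scramble siRNA was 0.17 in whole-cell and 0.16 in ER-bound RNA. The code was tested on simulated data. The alternatives changed the scaling (RLE factors, totals), the filter (none, or 2 CPM in 3 libraries), the tool (DESeq2 1.42.0, limma-voom from limma 3.58.1), the libraries fitted, the genes used for scaling (without mitochondrial mRNAs and ribosomal proteins), the block (replicate number) and the correction for GC content and length (an offset from splines of 5 degrees of freedom). Fractions are paired by lysate, but the main fit leaves this pairing out and treats the libraries as independent. The block alternative uses the replicate number and not the lysate. Between fractions of 1 lysate, deviations from the group means correlated at 0.160, -0.0305 and 0.256 with scramble siRNA. With Lsg1 siRNA they correlated at 0.277, 0.0158 and 0.281. Between the siRNAs in ER-bound RNA the values were 0.376, 0.126 and 0.322, where same-numbered libraries share only a number.

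The members, reference lists and tests were chosen with earlier results of these data known, including 2 libraries known to stand apart (replicate 3 of ER-bound RNA with scramble siRNA and replicate 3 of whole-cell RNA with Lsg1 siRNA). Named beside the members are Lsg1, up to 3 of the most abundant tested genes of a list, and the 3 tested genes of at least 5 CPM most correlated with each member of at least 5 CPM. From the cytoplasmic list, 5 polymerase III RNAs were kept out of the counts. Figures were drawn with matplotlib 3.10.9.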

Additional observations from a re-analysis of the deposited data

How the results depend on the processing

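Over 25 alternatives, Malat1, Neat1 and Rian kept their direction and call in both comparisons of fractions: Malat1 ran from -2.03 to -1.35 with scramble and from -1.99 to -1.27 with Lsg1 siRNA, Neat1 from -1.15 to -0.26 and from -1.24 to -0.37, and Rian from -2.04 to -1.05 and from -2.26 to -1.18 (log2). The number of the 7 RNAs called higher in scramble cells, 1 in the main analysis, was 0 in DESeq2, 0 without the pair of libraries known to stand apart (replicate 3 of ER-bound RNA with scramble siRNA and of whole-cell RNA with Lsg1 siRNA), 3 with the GC and length offset, 3 with that offset and the replicate block, and 0 to 1 with single libraries left out. In Lsg1 cells, 0 in the main analysis, it was 1 with library totals, 1 with no filter, 1 with the replicate block, 1 with only the groups compared, 3 with the offset, 3 with offset and block, and 0 to 1 with single libraries left out. The shares of all tested genes called higher in these fits are not given here. In the main analysis they were 29.8% in scramble and 30.6% in Lsg1 cells. Tug1 turned to 0.42 and 0.42 (scramble and Lsg1) with the offset and to 0.42 and 0.42 with offset and block. Kcnq1ot1 in scramble cells turned to 0.068 with library totals, 0.00094 with the stricter filter, 1.42 with the offset and 1.42 with offset and block, and ran from -0.18 to 0.13 with libraries left out; in Lsg1 cells it ran from -0.20 to 0.22. The cause of each reversal was not tested.

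For Lsg1 against scramble siRNA in whole-cell RNA, 0 genes were called higher and 0 lower. With no filter there were 24 and 2, with the replicate block 4 and 1, with offset and block 4 and 1, with the offset 1 higher, with DESeq2 3 higher, without the 2 libraries named above 3 and 1, with only the groups compared 1 and 1, without ER-bound replicate 3 of both siRNAs 1 lower, and with single libraries left out 0 to 2 and 0 to 1. The whole-cell libraries share only a number there: deviations of same-numbered libraries correlated at 0.277, -0.0096 and 0.312. Mirg ran from -0.10 to 0.0027 with libraries left out. In ER-bound RNA the number of the 7 called lower, 0, was 2 with no filter (Rian and Meg3), 1 without ER-bound replicate 3 of both siRNAs, and 0 to 1 with single libraries left out. How many of all genes were called lower with no filter is not given here. Calls with no filter come with smaller SEs. For the interaction the SE was then 0.0583 for Malat1 and 0.063 for Meg3, against 0.278 and 0.236 in the main analysis. Over all genes, 465 higher and 245 lower became 749 and 429 with the replicate block, 906 and 599 with offset and block, 216 and 159 with only the groups compared, 202 and 132 without ER-bound replicate 3 of both siRNAs, 307 higher without the 2 libraries named above, and 161 to 463 and 117 to 391 with single libraries left out. The lowest and highest log2 differences with libraries left out were -0.38 and 0.22 for Malat1 (0.22 without the 2 libraries named above), -0.070 and 0.12 for Neat1, and -0.26 and 0.17 for Kcnq1ot1, which was also at -0.0075 with the offset, -0.011 with offset and block and -0.10 without ER-bound replicate 3 of both siRNAs.

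For the interaction, 2 genes higher and 2 lower became 19 and 40 with no filter, 12 and 4 in DESeq2, 7 and 6 with the replicate block, 18 and 14 with offset and block, and 2 to 5 and 1 to 3 with single libraries left out. With libraries left out it ran from -0.24 to 0.36 for Malat1, -0.17 to 0.023 for Neat1, -0.40 to 0.060 for Meg3, -0.43 to 0.046 for Mirg, -0.18 to 0.25 for Kcnq1ot1 and -0.045 to 0.044 for Tug1. Without the 2 libraries named above Meg3 was at 0.040 and Tug1 at -0.034. Tug1 was at -0.0067 with no filter and -0.037 without ER-bound replicate 3 of both siRNAs, and Kcnq1ot1 was at -0.00041 with offset and block and -0.019 without ER-bound replicate 3 of both siRNAs. The low read counts of Mirg and Kcnq1ot1 and the spread of the ER-bound replicates limit what can be seen for these RNAs.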
